A study of Oryza sativa with 17 samples.

Results

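The accession by time interaction described here asks which genes changed their difference between a weedy and a cultivated rice between 10 and 12 days after imbibition (DAI) at 10 °C. It is the log2 change between 10 and 12 DAI in WR04-6 minus the log2 change between 10 and 12 DAI in QSZ, so a positive value means that the difference WR04-6 vs. QSZ moved upwards with time. Its members are 11 of the 17 libraries of the series, namely 3 of WR04-6 at 12 DAI, 3 of WR04-6 at 10 DAI, 3 of QSZ at 12 DAI and 2 of QSZ at 10 DAI (replicates 2 and 3). WR04-6 is a line of weedy rice and QSZ is a cultivated rice. Each accession is 1 line, both carry no transgene or other treatment named in the labels, and all seeds were imbibed and kept at 10 °C. Each library was made from polyA RNA of germinating seeds, and the 3 replicates of a group were described as biological replications, with no label that ties a replicate number to a shared plant or day. The 6 libraries of 14 DAI entered only the filter, the scaling and the estimate of the spread.

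A rice grain holds a small embryo beside a large dead endosperm that stores starch and protein, with a living aleurone layer around it. During germination the embryo takes up water, loosens its cell walls, resumes cell division and draws on its reserves, while transcripts of the seed maturation programme, such as those of late embryogenesis abundant (LEA) proteins and oleosins, decline. Gibberellin promotes and abscisic acid (ABA) restrains this transition. The libraries hold RNA of whole seeds, so fewer cells of a type and less RNA per cell cannot be told apart in any value below.

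Of 21949 genes tested, 1867 (8.51%) were called in the interaction, of which 884 (4.03%) were positive and 983 (4.48%) negative. A call needed a log2 value of at least 1 in size and a p-value below 0.05 in edgeR's quasi-likelihood test, after Benjamini-Hochberg adjustment over the whole table. The split by direction moved with the scaling, with 1258 positive and 567 negative genes on library totals alone, a scaling under which the median of all genes shifted to 0.17. The 2 arms of the contrast share their libraries with it and are given beside it. Between 12 and 10 DAI, 6 genes (0.0273%) were called in WR04-6, 2 higher (0.00911%) and 4 lower (0.0182%) at 12 DAI, with 1959 at an unadjusted p below 0.05 and 112 called by DESeq2, against 2914 genes (13.3%) in QSZ, 1219 higher (5.55%) and 1695 lower (7.72%). The count in WR04-6 was 0 without WR04-6 12 DAI replicate 1 or 2, 1 without WR04-6 12 DAI replicate 3 or WR04-6 14 DAI replicate 3, and 2 without QSZ 12 DAI replicate 2, WR04-6 10 DAI replicate 1 or WR04-6 14 DAI replicate 1. In 1791 of the 1867 genes the fitted change in QSZ was larger in size than that in WR04-6. The positive genes had a median change of 0.20 in WR04-6 and of −1.67 in QSZ on the log2 scale, and the negative genes one of −0.16 in WR04-6 and of 1.18 in QSZ. The accession difference was larger in size at 12 DAI than at 10 DAI in 1029 of the called genes and smaller in 838, and its sign turned in 1125. The FPKM values of QSZ did not overlap between 12 and 10 DAI in 1787 of the called genes (95.7%, against 48.5% of all genes tested), and those of WR04-6 did not overlap in 539 (28.9%, against 20.9%). With 2 libraries of QSZ at 10 DAI against 3 of WR04-6, a lack of overlap is easier to reach in QSZ, so the shares of the accessions are not on 1 scale.

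**Figure D1:**
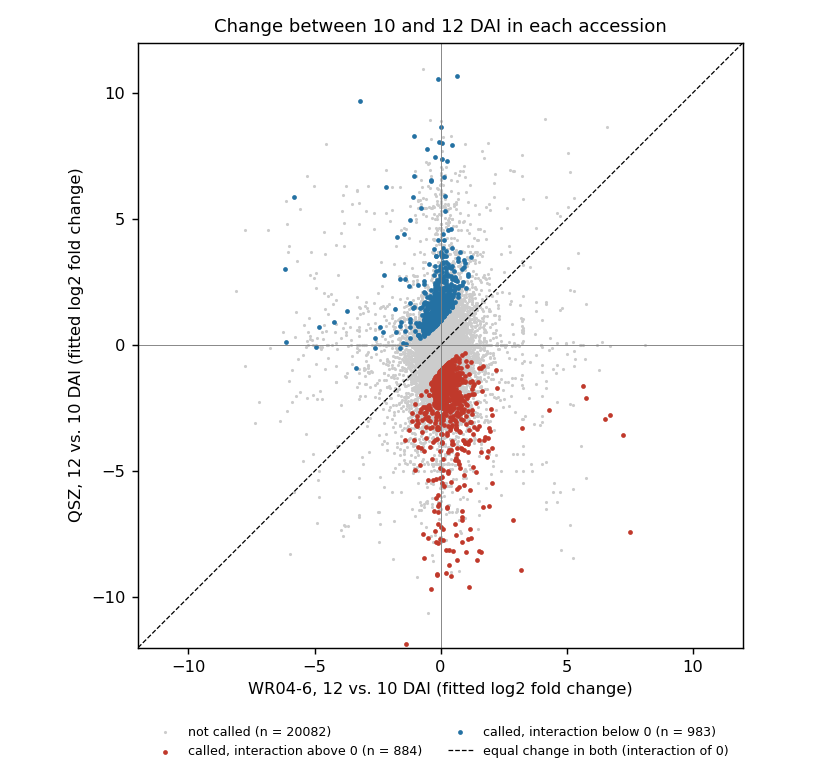
Fitted log2 fold change between 12 and 10 DAI in WR04-6 (horizontal axis) and in QSZ (vertical axis) for each of the 21949 genes tested. The 884 genes called with a positive interaction (red) lie mostly below 0 on the QSZ axis and the 983 called with a negative one (blue) mostly above it, while most of both sit near 0 on the WR04-6 axis. The dashed line marks equal change in both accessions.

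The interaction moved with transcript length. With the genes divided by transcript length into 10 classes of equal size, the shortest class, whose transcripts had a median length of 0.377 times the typical one, had a median interaction of 0.46. The median was −0.57 in the longest class, at 1.98 times the typical length. The longest class held 395 negative and 15 positive calls among 2195 genes, and the shortest class 33 negative and 173 positive. The level of the longest minus that of the shortest class, on the log2 scale relative to the mean of the libraries, was 0.14 to 0.51 in WR04-6 at 12 DAI and 0.28 to 0.42 in WR04-6 at 10 DAI. In QSZ it was −0.13 to 0.13 at 12 DAI, against −1.06 and −0.91 at 10 DAI. Both QSZ libraries of 10 DAI were also the shallowest, with 33280479 and 42313486 estimated counts against 64562065 to 72494532 in the other 9. In the paper's quality control these 2 libraries also had the lowest shares of valid reads in the series. Whether length, depth, read quality and the group QSZ 10 DAI act separately cannot be told apart. With a smooth of each library's deviation on transcript length as an offset (length-adjusted, tried only once the data had been seen), 984 calls (4.48%) were made, 588 positive (2.68%) and 396 negative (1.8%), and 806 of the 1867 genes stayed called in the same direction.

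**Figure D2:**
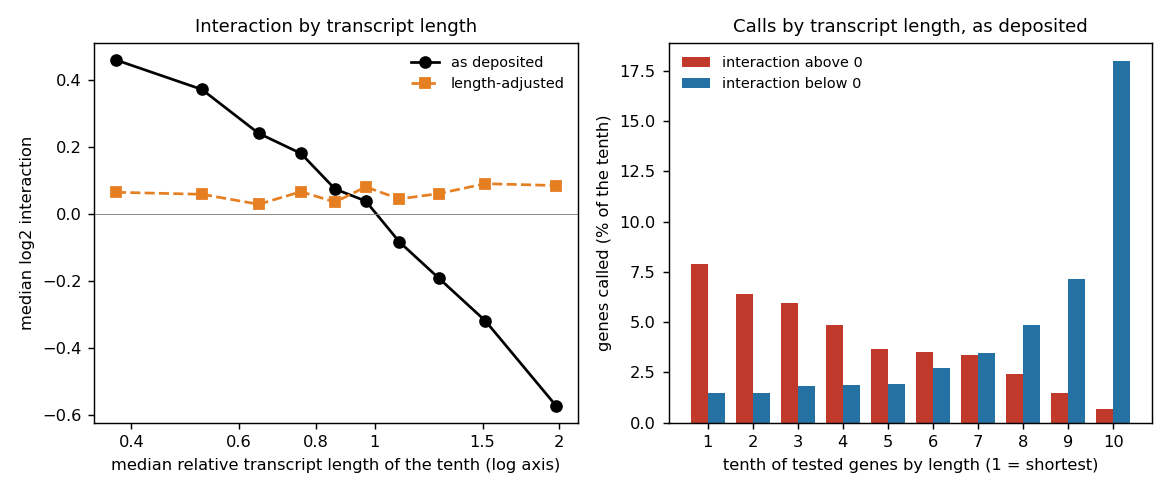
Left, median log2 interaction of each of 10 length classes of the 21949 tested genes against its median relative transcript length (log axis), as deposited (black) and length-adjusted (orange). Right, percent of each class called with a positive (red) or a negative (blue) interaction, as deposited. The median went from 0.46 in the shortest class to −0.57 in the longest as deposited, and stayed between 0.03 and 0.09 after adjustment.

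Single libraries also carried many calls. The 1867 calls became 1075 without WR04-6 12 DAI replicate 2, 1224 without WR04-6 12 DAI replicate 3 and 2936 without QSZ 12 DAI replicate 1. The 884 positive calls became 439 without QSZ 10 DAI replicate 3, 442 and 519 without WR04-6 12 DAI replicates 2 and 3, 584 and 546 without WR04-6 10 DAI replicates 2 and 3, and 1884 without QSZ 12 DAI replicate 1. The 983 negative calls were fewest, at 633, without WR04-6 12 DAI replicate 2. Where QSZ at 10 DAI or any other group lost a library, the rest was assumed to vary like the other groups. In the following, a call is described as kept throughout where the gene was also called in the same direction without each of the 17 libraries in turn and after length adjustment. This held for 381 genes, 204 positive (0.929% of the genes tested) and 177 negative (0.806%). Each gene list is given by its members called in each direction, against 4.03% positive and 4.48% negative over all genes, by its median interaction, against −0.01 over all genes, and by its members kept throughout. Counts after length adjustment stand against 2.68% positive and 1.8% negative over all genes.

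**Figure D3:**
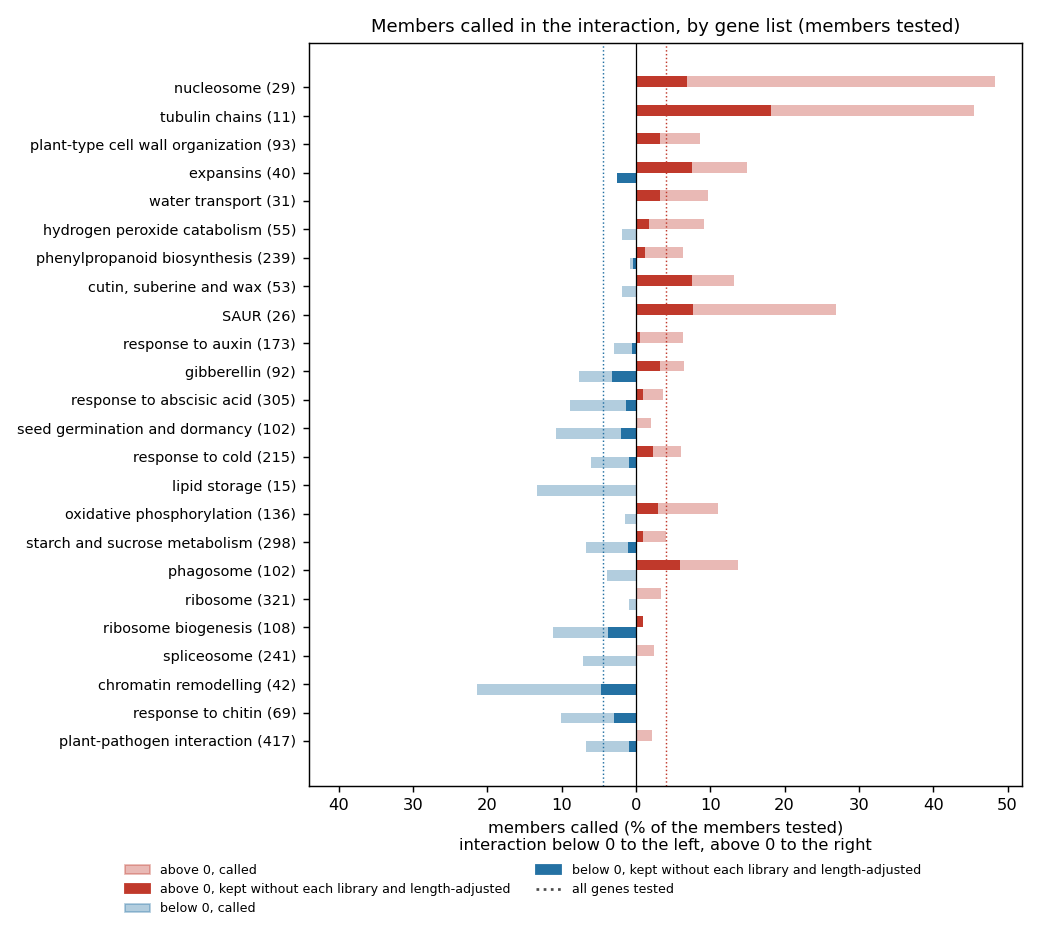
Percent of the tested members of 24 gene lists that were called with a negative (left, blue) or a positive (right, red) interaction, with the part kept throughout in full colour. Dotted lines mark the same share over all genes tested (4.03% positive, 4.48% negative), and the number of members tested stands in parentheses.

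Nucleosome, histone and tubulin genes were called with positive interactions only, that is, higher with time in WR04-6 relative to QSZ, while lists of microtubule-based movement and DNA replication were not. Of 29 genes annotated to the nucleosome, 14 (48.3%) were positive and 0 negative, with a median interaction of 1.72 (1.92 with groups at 0 set to the detection floor). The median change of the list between 12 and 10 DAI was 0.33 in WR04-6 and −1.38 in QSZ. This list is short in transcript (median 0.46 times the typical length), and 3 members were called after length adjustment. Without QSZ 10 DAI replicate 3 the list had 4 positive members, and 2 were kept throughout. Of 29 histone genes 11 (37.9%) were positive and 0 negative as deposited, 2 without QSZ 10 DAI replicate 3, 17 without QSZ 12 DAI replicate 1 and 0 after length adjustment. Of 11 tubulin chain genes, 5 (45.5%) were positive, and of 13 mitotic cyclin genes 3 (23.1%), with 0 negative in both and with 4 and 2 positive after length adjustment. Without QSZ 10 DAI replicate 3, WR04-6 10 DAI replicate 3 or WR04-6 12 DAI replicate 2, 2 tubulin genes and 0 cyclin genes were called, and without QSZ 12 DAI replicate 2 again 0 cyclin genes, against 5 without QSZ 10 DAI replicate 2 or QSZ 12 DAI replicate 1. The tubulin, cyclin and histone lists were added after values had been seen. Of 60 genes of microtubule-based movement 1 (1.67%) was positive and 2 (3.33%) negative as deposited, 1 and 0 after length adjustment, and 0 were kept throughout, with 12 positive without QSZ 10 DAI replicate 2 and 11 without QSZ 12 DAI replicate 1. Of 75 DNA replication genes 0 were positive and 7 (9.33%) negative, 0 and 2 after length adjustment, with 1 kept throughout and 6 positive without QSZ 12 DAI replicate 1. The median interaction was 0.34 for microtubule-based movement and 0.07 for DNA replication.

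TUB4 (LOC_Os01g59150, chromosome 1, 34167933 to 34171810), a beta-tubulin of the microtubule, had 127, 151 and 113 FPKM in WR04-6 at 12 DAI and 115, 101 and 86.5 at 10 DAI, against 23.3, 16.2 and 10.3 in QSZ at 12 DAI and 53.1 and 83.95 at 10 DAI. All 3 QSZ libraries of 12 DAI lay below those of 10 DAI, while the WR04-6 libraries of the 2 times overlapped. Its interaction was 2.28 ± 0.48 (log2 ± SE, adjusted p = 0.0091), and it was kept throughout. The same held for the tubulin beta-5 chain gene LOC_Os02g07060, with an interaction of 1.33 ± 0.29 (adjusted p = 0.011).

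The calls of genes of the dividing cell itself depended on single libraries. Cyclin-B1-5 (LOC_Os05g41390), of the cyclins that drive entry into mitosis, had 7.60, 12.3 and 10.5 FPKM in WR04-6 at 12 DAI and 9.35, 3.42 and 1.73 at 10 DAI, against 0.785, 0.22 and 0 in QSZ at 12 DAI and 0.866 and 9.73 at 10 DAI. The 2 QSZ libraries of 10 DAI differed more than 10-fold from each other. Its interaction was 4.92 ± 1.40 (adjusted p = 0.032), and without QSZ 10 DAI replicate 3 it was 2.40 (adjusted p = 0.3). The call was also lost without 5 other libraries, QSZ 12 DAI replicate 2, WR04-6 10 DAI replicates 2 and 3 and WR04-6 12 DAI replicates 2 and 3. Cyclin-dependent kinase B2-1 (LOC_Os08g40170), a mitotic kinase of plants, had 29.6, 39.5 and 33.1 FPKM in WR04-6 at 12 DAI and 28.9, 15.1 and 6.10 at 10 DAI, against 3.62, 3.95 and 1.07 in QSZ at 12 DAI and 3.26 and 30.03 at 10 DAI. Among the QSZ libraries, only replicate 3 of 10 DAI stood within the range of WR04-6, and the interaction of 3.41 ± 0.94 (adjusted p = 0.029) was 1.13 without it, with the call also lost without QSZ 12 DAI replicate 3 and WR04-6 replicates 2 and 3 of both times. The probable histone H2A.6 gene LOC_Os05g02300, with an interaction of 3.94 ± 1.25, showed the same division within QSZ at 10 DAI (6.09 and 35.8) and had a value of 2.24 without replicate 3. It kept its call only without QSZ 10 DAI replicate 2, QSZ 12 DAI replicate 1 or QSZ 14 DAI replicate 1.

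Markers of green shoot tissue moved in the same libraries. The 5 green shoot markers tested were 3 Rubisco small subunits and 2 chlorophyll a-b binding proteins. Their summed FPKM was 44.9 to 84.4 in WR04-6 at 12 DAI and 43.2 to 183.7 at 10 DAI, against 2.82 to 4.57 in QSZ at 12 DAI and 24.4 and 102.9 in replicates 2 and 3 of QSZ at 10 DAI. All 5 had an interaction above 0, and 1 was called, with 0 to 2 called with 1 library left out. The called one, the chlorophyll a-b binding protein 2 gene LOC_Os01g41710, was at 0 in replicates 1 and 2 of QSZ at 12 DAI. Its call was lost without 9 of the 17 libraries, QSZ 10 DAI replicate 3, all 3 of QSZ at 12 DAI, replicates 2 and 3 of WR04-6 at 10 and 12 DAI and WR04-6 14 DAI replicate 3, and after length adjustment. The part of green tissue in the interaction was not tested.

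**Figure D4:**
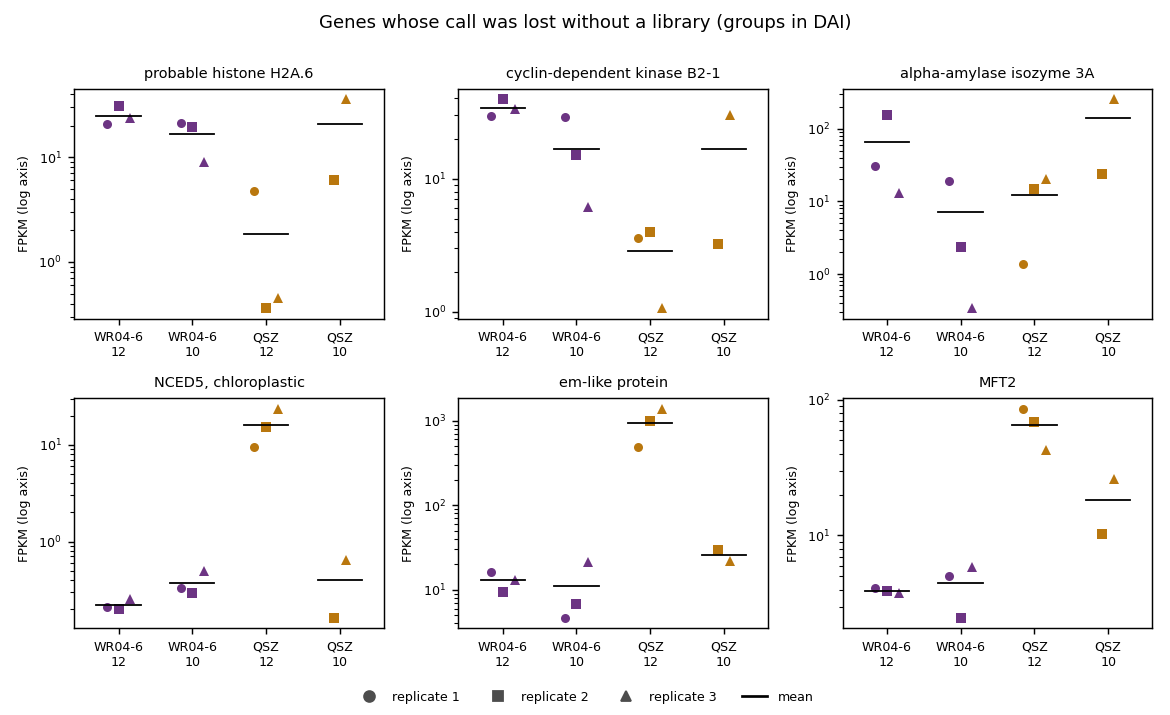
FPKM (log axis) by library of 6 genes whose call in the interaction was lost without 1 or more single libraries, in WR04-6 at 12 and 10 DAI (purple) and QSZ at 12 and 10 DAI (orange), with the replicate as the symbol and the group mean as a line. For histone H2A.6, cyclin-dependent kinase B2-1 and alpha-amylase 3A, QSZ 10 DAI replicate 3 (triangle) lies far above replicate 2 (square).

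Genes of cell wall loosening and water uptake were called in the same direction as the tubulins, and several were kept throughout. Of 93 genes of plant-type cell wall organization, 8 (8.6%) were positive and 0 negative, with a median interaction of 1.57. Of 40 expansin genes, a list added after values had been seen, 6 (15%) were positive and 1 negative, with a median of 2.07. In the cell wall list, 3 members were called without QSZ 10 DAI replicate 3, WR04-6 10 DAI replicate 3 or WR04-6 12 DAI replicate 2, and 31 without QSZ 12 DAI replicate 1, and 3 were kept throughout. Among the expansins 3 were called without QSZ 10 DAI replicate 3, QSZ 12 DAI replicate 2 or replicates 2 or 3 of WR04-6 at 10 or 12 DAI, and 18 without QSZ 12 DAI replicate 1. Of 31 water transport genes 3 (9.68%) were positive and 0 negative, and 1 was kept throughout, with 1 called without QSZ 10 DAI replicate 3 and 10 without QSZ 12 DAI replicate 1. All 11 expansin and aquaporin genes chosen by locus had an interaction above 0, and 2 were called (6 without QSZ 12 DAI replicate 1).

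Expansin-A4 (LOC_Os05g39990, chromosome 5, 23495606 to 23497572), of the family of proteins that loosen plant cell walls in acid, had 281, 261 and 250.1 FPKM in WR04-6 at 12 DAI and 308, 316 and 317 at 10 DAI, against 33.7, 27.96 and 28.1 in QSZ at 12 DAI and 162 and 181 at 10 DAI. QSZ at 12 DAI was lowest in every library, and WR04-6 lay above both QSZ groups at both times. The interaction was 2.13 ± 0.36 (adjusted p = 0.0047), from a change of −2.39 ± 0.27 in QSZ (adjusted p = 0.00022) and of −0.26 in WR04-6. Expansin-B8 (LOC_Os03g01260) had 234, 225 and 282 FPKM in WR04-6 at 12 DAI and 310.3, 344 and 317 at 10 DAI, against 59.6, 20.02 and 3.81 in QSZ at 12 DAI and 441 and 547 at 10 DAI. Here QSZ was above WR04-6 at 10 DAI and below it at 12 DAI, and the 3 QSZ libraries of 12 DAI spread more than 10-fold. Its interaction was 3.65 ± 0.85 (adjusted p = 0.014). Expansin-A29 (LOC_Os06g50400) had an interaction of 2.99 ± 0.55 (adjusted p = 0.006), with a mean of 66.9 FPKM in WR04-6 and of 10.1 in QSZ at 12 DAI, against 65.6 in WR04-6 and 84.7 in QSZ at 10 DAI. These 3 expansins were kept throughout.

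Aquaporin PIP1-3 (LOC_Os02g57720, chromosome 2, 35349673 to 35351454), a water channel of the plasma membrane, had 69.2, 100.3 and 123 FPKM in WR04-6 at 12 DAI and 59.6, 80.1 and 49.2 at 10 DAI, against 13.4, 8.58 and 5.20 in QSZ at 12 DAI and 31.8 and 64.8 at 10 DAI. Its interaction was 2.90 ± 0.52 (adjusted p = 0.0053). Among the other plasma membrane aquaporins chosen by locus, PIP1-1, PIP1-2, PIP2-1 and PIP2-2 had interactions of 0.52, 0.19, 0.77 and 1.43 and were not called. PIP2-6 (LOC_Os04g16450) was called at 2.81 ± 0.72 (adjusted p = 0.021), and its call was lost without QSZ 10 DAI replicate 3 (1.94, adjusted p = 0.12) and without WR04-6 12 DAI replicate 2.

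Wall cross-linking and surface polymers followed. Of 53 genes of cutin, suberine and wax biosynthesis, 7 (13.2%) were positive and 1 negative, with 4 positive kept throughout, at a median interaction of 0.28. The positive count was 4 without replicates 2 or 3 of WR04-6 at 10 or 12 DAI and 11 without QSZ 12 DAI replicate 1. The fatty alcohol:caffeoyl-CoA acyltransferase gene LOC_Os01g01520, of a class that joins phenolic acids to the alcohols of wax and suberin, had 25.01, 26.2 and 22.6 FPKM in WR04-6 at 12 DAI and 28.4, 19.7 and 16.5 at 10 DAI, against 10.2, 4.22 and 3.04 in QSZ at 12 DAI and 23.1 and 29.1 at 10 DAI. Its interaction was 2.24 ± 0.46 (adjusted p = 0.0087). Of 239 phenylpropanoid genes, 15 (6.28%) were positive and 2 negative (median 0.67), 3 and 1 of them kept throughout, with a positive count of 4 without WR04-6 12 DAI replicate 2 and of 54 without QSZ 12 DAI replicate 1. Peroxidase 17 (LOC_Os09g29490), which uses hydrogen peroxide to couple phenolics, had 28.9, 32.1 and 27.6 FPKM in WR04-6 at 12 DAI and 24.8, 23.2 and 20.1 at 10 DAI, against 14.3, 10.8 and 7.31 in QSZ at 12 DAI and 38.2 and 34.4 at 10 DAI. QSZ lay above WR04-6 in every library at 10 DAI and below it in every library at 12 DAI, and the interaction was 2.01 ± 0.31 (adjusted p = 0.0041), kept throughout. Of 55 genes of hydrogen peroxide catabolism 5 (9.09%) were positive and 1 negative, with 1 positive without WR04-6 10 DAI replicate 3 or WR04-6 12 DAI replicate 2 and 14 without QSZ 12 DAI replicate 1. Of 108 genes of pentose and glucuronate interconversion, which hold the pectin-modifying enzymes, 9 (8.33%) were positive and 0 negative, and 0 were called without WR04-6 10 DAI replicate 3 or without WR04-6 12 DAI replicate 2 (18 without QSZ 12 DAI replicate 1). After length adjustment 2 (3.64%) genes of hydrogen peroxide catabolism were positive and 1 (1.82%) negative, and 5 (4.63%) and 0 of pentose and glucuronate interconversion. Of 30 genes of xyloglucan metabolism, which include the XTH enzymes that cut and rejoin xyloglucan, 1 (3.33%) was called in each direction, both shares below those over all genes, and 22 lay above 0, with a median of 0.68. Positive members numbered 10 without QSZ 12 DAI replicate 1. XTH8 (LOC_Os07g34580) had an interaction of 2.30 ± 0.58 (adjusted p = 0.019) and XTH25 (LOC_Os06g48200) one of −1.88 ± 0.44 (adjusted p = 0.014), and without QSZ 10 DAI replicate 3 both calls were lost, at 1.84 and −1.60.

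A negative wall-related gene was UDP-glucuronic acid decarboxylase 1 (LOC_Os03g17230, chromosome 3, 9600151 to 9603553), which makes UDP-xylose, a precursor of xylans. It had 1.41, 0.965 and 1.47 FPKM in WR04-6 at 12 DAI and 1.60, 1.44 and 1.27 at 10 DAI, against 5.19, 5.58 and 7.12 in QSZ at 12 DAI and 0.415 and 0.705 at 10 DAI. QSZ was below WR04-6 at 10 DAI and above it at 12 DAI with no overlap, while WR04-6 had similar values at both times. The interaction was −3.71 ± 0.50 (adjusted p = 0.0039) and it was kept throughout.

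**Figure D5:**
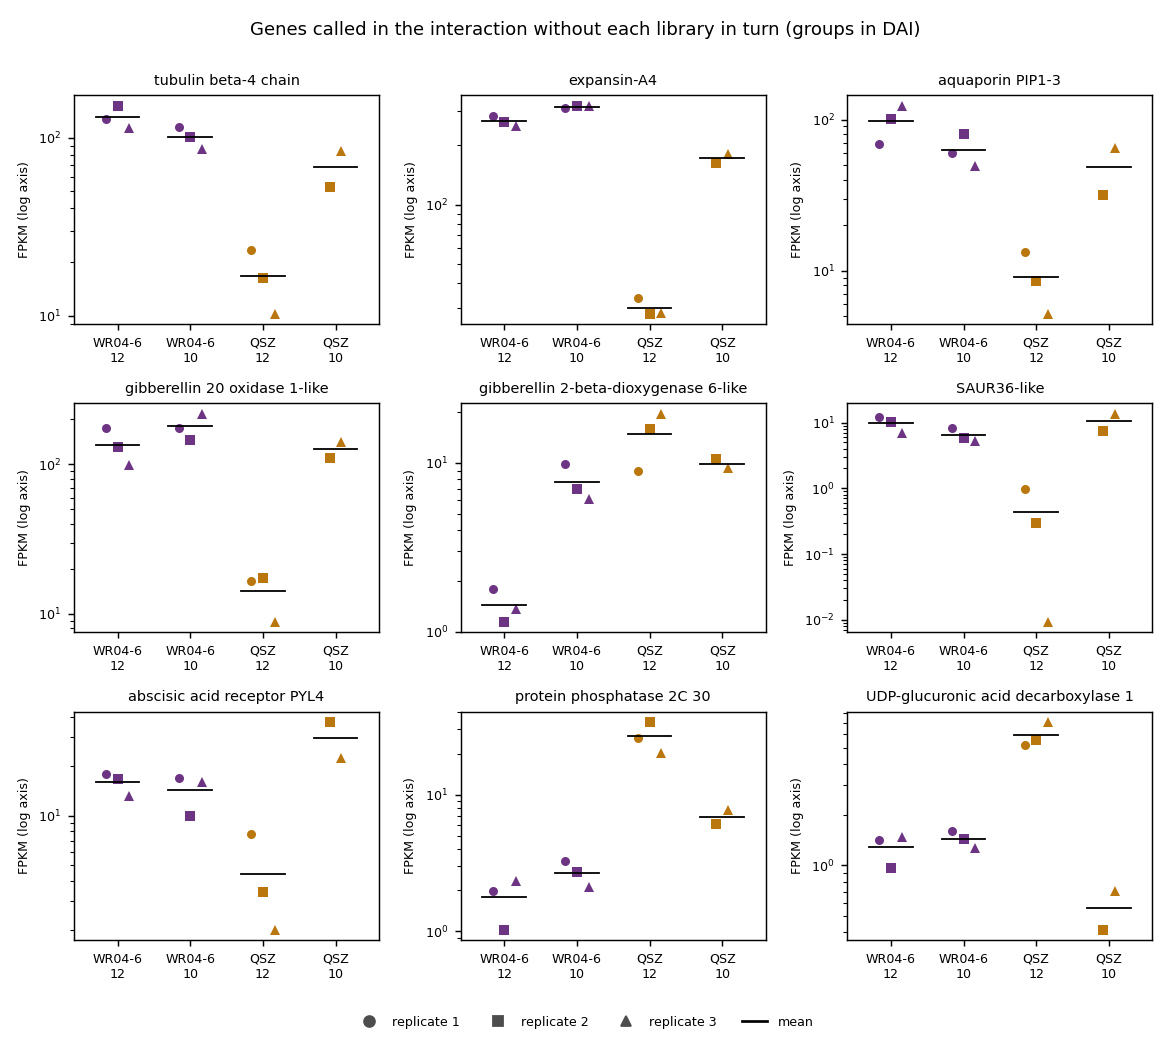
FPKM (log axis) by library of 9 genes kept throughout, in WR04-6 at 12 and 10 DAI (purple) and QSZ at 12 and 10 DAI (orange), with the replicate as the symbol and the group mean as a line. In 6 of them QSZ at 12 DAI lies lowest, in PP2C 30 and UDP-glucuronic acid decarboxylase 1 it lies highest, and in gibberellin 2-beta-dioxygenase 6-like WR04-6 at 12 DAI lies lowest.

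Auxin-related genes leaned upwards as deposited. The wider list of the response to auxin did not keep its lean without QSZ 10 DAI replicate 3, where calls over all genes also shifted to the negative side. Of 26 SAUR genes, small auxin-induced transcripts of growing tissue, 7 (26.9%) were positive and 0 negative, with a median of 4.73 (4.43 with groups at 0 set to the floor). The list was added after values had been seen, its transcripts are short (median 0.36 times the typical length), and 2 members were kept throughout, with 3 called without QSZ 10 DAI replicate 2 and 15 without QSZ 12 DAI replicate 1. One of them, a SAUR36-like gene (LOC_Os09g37394), had 12.1, 10.3 and 7.03 FPKM in WR04-6 at 12 DAI and 8.37, 5.80 and 5.30 at 10 DAI, against 0.99, 0.294 and 0.00937 in QSZ at 12 DAI and 7.52 and 13.6 at 10 DAI. All QSZ libraries of 12 DAI lay below 1 FPKM, and the interaction was 5.05 ± 1.07 (adjusted p = 0.0098). Of the 173 genes of the response to auxin, 11 (6.36%) were positive and 5 (2.89%) negative, with a median of 0.12 (0.26 with groups at 0 set to the floor), and 1 in each direction was kept throughout. Without QSZ 10 DAI replicate 3, which leaves a single library in that group, negative calls outnumbered positive ones in this list and over all genes. Positive members numbered 33 and negative ones 5 without QSZ 12 DAI replicate 1. GH3.2 (LOC_Os01g55940), which conjugates auxin to amino acids, had an interaction of 2.07 ± 0.50 (adjusted p = 0.017) and was not called without QSZ 10 DAI replicate 3 (1.88, adjusted p = 0.06).

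Gibberellin genes were called on both sides. Among 92 genes annotated to gibberellin, 6 (6.52%) were positive and 7 (7.61%) negative, with 3 in each direction kept throughout and a median of −0.11. The positive count was 3 without QSZ 10 DAI replicate 3 and 12 without QSZ 12 DAI replicate 1, and the negative one 4 without WR04-6 12 DAI replicate 2. Of 11 gibberellin genes chosen by locus, 2 (18.2%) were positive and 0 negative, and both were kept throughout, while 4 were called without QSZ 12 DAI replicate 1. The gibberellin 20 oxidase 1-like gene (LOC_Os03g63970, chromosome 3, 36150664 to 36152517), of the enzyme family that makes the precursors of active gibberellins, had 174, 129.9 and 99.2 FPKM in WR04-6 at 12 DAI and 174, 145 and 218 at 10 DAI, against 16.6, 17.3 and 8.87 in QSZ at 12 DAI and 111 and 141 at 10 DAI. At 10 DAI the highest QSZ library lay just below the lowest WR04-6 library, and at 12 DAI every QSZ library lay more than 5-fold below every WR04-6 library. The interaction was 2.59 ± 0.38 (adjusted p = 0.004), from −3.02 ± 0.29 in QSZ (adjusted p = 0.00015) and −0.43 in WR04-6 (adjusted p = 0.65). The 14-3-3-like gene GF14-E (LOC_Os02g36974), a phosphoprotein-binding adaptor, was among the genes chosen by locus, though the table's description is not that of a gibberellin gene. It had 99.95, 119.7 and 111 FPKM in WR04-6 at 12 DAI and 102, 99.7 and 90.6 at 10 DAI, against 58.4, 59.7 and 39.4 in QSZ at 12 DAI and 118 and 130.01 at 10 DAI. Its interaction was 1.29 ± 0.24 (adjusted p = 0.0065).

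A gene of gibberellin breakdown took the other course and was among the few with a called change in WR04-6. The gibberellin 2-beta-dioxygenase 6-like gene (LOC_Os04g44150, chromosome 4, 26130707 to 26134356), of the family that inactivates gibberellins, had 1.79, 1.15 and 1.36 FPKM in WR04-6 at 12 DAI and 9.90, 7.05 and 6.12 at 10 DAI, against 8.91, 15.9 and 19.6 in QSZ at 12 DAI and 10.5 and 9.36 at 10 DAI. It fell in WR04-6 (−2.42 ± 0.35, adjusted p = 0.032), where all 3 libraries of 12 DAI lay below those of 10 DAI, while QSZ had a change of 0.71 (adjusted p = 0.17). The interaction was −3.13 ± 0.51 (adjusted p = 0.0044) and its call was kept throughout. The call of the change in WR04-6 was lost on the 11 libraries alone and without WR04-6 12 DAI replicate 1 or 2, where 0 genes were called in WR04-6. The other 9 gibberellin genes chosen by locus had interactions of −0.63 to 3.26 and were not called, among them the receptor gene GID1 (−0.63, adjusted p = 0.05, short of the size limit) and the DELLA gene SLR1 (−0.12), a repressor of gibberellin responses. Ent-kaurenoic acid oxidase (LOC_Os06g02019), an earlier step of synthesis, had an interaction of 2.40 ± 0.67 (adjusted p = 0.03) that lost its call without 7 of the 17 libraries. These were both of QSZ at 10 DAI, QSZ 12 DAI replicate 2, WR04-6 10 DAI replicates 2 and 3 and WR04-6 12 DAI replicates 1 and 2 (2.05 at the lowest over all libraries left out). In 58 diterpenoid biosynthesis genes 4 (6.9%) were positive and 1 negative, with 1 positive without either library of QSZ at 10 DAI or WR04-6 10 DAI replicate 2 and 7 without QSZ 12 DAI replicate 1.

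Genes of ABA synthesis and response leaned to negative interactions as deposited. Of 305 genes of the response to ABA, 11 (3.61%) were positive and 27 (8.85%) negative, with a median of −0.21, of which 3 and 4 were kept throughout. Positive members numbered 5 without QSZ 10 DAI replicate 3 and 22 without QSZ 12 DAI replicate 1, and negative ones 16 without WR04-6 12 DAI replicate 2. After length adjustment 10 (3.28%) were positive and 12 (3.93%) negative, against 2.68% and 1.8% over all genes on that scale, and the median was −0.02. Of the 12 ABA genes chosen by locus 0 had an interaction above 0, and 3 were negative. None of the 3 was kept throughout. NCED5 (LOC_Os12g42280, chromosome 12, 26268230 to 26270794), of the family of the rate-limiting enzyme of ABA synthesis, had 0.208, 0.201 and 0.257 FPKM in WR04-6 at 12 DAI and 0.328, 0.292 and 0.501 at 10 DAI, against 9.39, 15.3 and 23.6 in QSZ at 12 DAI and 0.163 and 0.646 at 10 DAI. All 8 other libraries lay below 1 FPKM, and QSZ at 12 DAI lay above 9. It rose in QSZ (5.46 ± 1.20, adjusted p = 0.0046), and its interaction was −6.22 ± 1.44 (adjusted p = 0.013). Without QSZ 10 DAI replicate 2, which leaves 1 library in that group, it was −5.62 (adjusted p = 0.061).

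MFT2 (LOC_Os01g02120), a member of the phosphatidylethanolamine-binding family known from Arabidopsis and rice as a regulator of seed germination under ABA, had 4.10, 3.92 and 3.76 FPKM in WR04-6 at 12 DAI and 5.01, 2.48 and 5.88 at 10 DAI, against 85.7, 67.9 and 42.3 in QSZ at 12 DAI and 10.3 and 26.2 at 10 DAI. QSZ was higher in every library at both times, and the gap widened at 12 DAI. Its interaction was −2.19 ± 0.55 (adjusted p = 0.019), and −1.72 without QSZ 10 DAI replicate 2 (adjusted p = 0.074). ABA 8'-hydroxylase 2 (LOC_Os08g36860), which breaks ABA down, had an interaction of −2.54 ± 0.80 (adjusted p = 0.048) and kept its call only without QSZ 12 DAI replicate 3 or QSZ 14 DAI replicates 1 or 3. The other 9, among them VP1 (LOC_Os01g68370, −1.13, adjusted p = 0.054), ABI5 (−0.80) and Rab21 (−0.31), had interactions of −1.63 to −0.30 and were not called.

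An ABA receptor gene and a phosphatase gene of ABA signalling, PYL4 and PP2C 30, had interactions of opposite sign. PYL4 (LOC_Os03g18600, chromosome 3, 10418634 to 10419919), a soluble ABA receptor, had 17.9, 16.8 and 13.2 FPKM in WR04-6 at 12 DAI and 16.9, 9.88 and 16.03 at 10 DAI, against 7.72, 3.42 and 2.01 in QSZ at 12 DAI and 37.2 and 22.3 at 10 DAI. Its interaction was 2.83 ± 0.56 (adjusted p = 0.0075). PP2C 30 (LOC_Os03g16170, chromosome 3, 8921370 to 8923437), of the phosphatases that block ABA signalling until a receptor binds them, had 1.98, 1.03 and 2.33 FPKM in WR04-6 at 12 DAI and 3.26, 2.71 and 2.11 at 10 DAI, against 26.1, 34.1 and 20.2 in QSZ at 12 DAI and 6.12 and 7.70 at 10 DAI. Both kept their calls throughout, with PYL4 lower and PP2C 30 higher in QSZ at 12 than at 10 DAI, and the interaction of PP2C 30 was −2.68 ± 0.59 (adjusted p = 0.011). In WR04-6 neither was called (adjusted p = 0.96 for PYL4 and adjusted p = 0.69 for PP2C 30). Of 405 genes of hormone signal transduction in all, 23 (5.68%) were positive and 16 (3.95%) negative, with 5 and 3 kept throughout, and 19 (4.69%) positive and 5 (1.23%) negative after length adjustment. There were 9 positive and 11 negative without WR04-6 12 DAI replicate 2, and 62 and 15 without QSZ 12 DAI replicate 1. Without QSZ 10 DAI replicate 3, which leaves a single library in that group, negative calls outnumbered positive ones, as they did over all genes. The response regulator ORR10 (LOC_Os12g04500), of cytokinin signalling, had an interaction of 3.95 ± 1.01 (adjusted p = 0.021) and of 2.05 without QSZ 10 DAI replicate 3, with the call also lost without WR04-6 12 DAI replicate 2.

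Lists of the maturing seed had a median interaction below 0, but few members were called. Over 27 LEA, dehydrin and Em genes the median was −1.26, with 1 positive and 2 negative, 1 in each direction after length adjustment (0 negative without either library of QSZ at 10 DAI or WR04-6 12 DAI replicate 2, and 5 without QSZ 14 DAI replicate 3). The summed FPKM was 4104 to 4868 in WR04-6 at 12 DAI and 2664 to 2868 at 10 DAI, against 23820 to 41366 in QSZ at 12 DAI and 8998 and 11172 at 10 DAI. Sums were higher at 12 than at 10 DAI in both accessions. The em-like gene LOC_Os01g06630, a hydrophilic seed protein, had 16.4, 9.35 and 13.1 FPKM in WR04-6 at 12 DAI and 4.68, 6.80 and 21.6 at 10 DAI, against 486, 982 and 1389 in QSZ at 12 DAI and 29.6 and 22.2 at 10 DAI, with no overlap between the QSZ times. Its interaction was −5.15 ± 1.31 (adjusted p = 0.02), and the call was lost without either library of QSZ at 10 DAI or without WR04-6 12 DAI replicate 2. Of 6 oleosin genes, coat proteins of oil bodies, 2 (33.3%) were negative, with a median of −1.42. Oleosin 18 kDa (LOC_Os03g49190) had 63.98, 45.1 and 88.5 FPKM in WR04-6 at 12 DAI and 49.2, 39.8 and 37.6 at 10 DAI, against 796, 1148 and 1099 in QSZ at 12 DAI and 225 and 226 at 10 DAI. Its interaction was −1.67 ± 0.50 (adjusted p = 0.04). That call was kept among the 11 libraries of 10 and 12 DAI only without QSZ 12 DAI replicate 1 or WR04-6 12 DAI replicate 3. Without QSZ 10 DAI replicate 3 both oleosin calls were lost, at −1.66 for oleosin 18 kDa (adjusted p = 0.11) and −1.69 for oleosin 5 (LOC_Os06g27910, adjusted p = 0.063). The LEA and oleosin lists were added after values had been seen.

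Storage protein transcripts of the endosperm, which are laid down in the filling grain, were not called in any of 8 genes, with interactions of −1.64 to −0.35. Their summed FPKM was 3842 to 5467 in WR04-6 at 12 DAI and 2725 to 9097 at 10 DAI, against 9945 to 22049 in QSZ at 12 DAI and 11967 and 6112 at 10 DAI. The groups of both accessions overlapped between the times. Of 29 genes annotated to nutrient reservoir activity 1 was positive and 2 (6.9%) negative, 1 in each direction kept throughout, with a positive count of 3 without WR04-6 10 DAI replicate 1 and a negative one of 4 without WR04-6 14 DAI replicate 2. The positive one, a BURP domain gene (LOC_Os05g12630), had 1.70, 11.7 and 5.41 FPKM in WR04-6 at 12 DAI and 0.354, 1.28 and 0.401 at 10 DAI, against 0 in all 3 libraries of QSZ at 12 DAI and 0.699 and 0.395 at 10 DAI. The negative one kept throughout was LOC_Os08g03410 (chromosome 8, 1597234 to 1599568), a hypothetical protein. It had 507, 429 and 509.9 FPKM in WR04-6 at 12 DAI and 316, 447 and 397 at 10 DAI, against 3169.9, 3941 and 7914 in QSZ at 12 DAI and 758 and 421 at 10 DAI. It rose in QSZ (3.21 ± 0.53, adjusted p = 0.001) while WR04-6 had a change of 0.30 (adjusted p = 0.89). The interaction was −2.91 ± 0.64 (adjusted p = 0.012).

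Among 102 genes of seed germination and dormancy, 2 (1.96%) were positive and 11 (10.8%) negative, with 0 and 2 kept throughout and 3 and 4 called after length adjustment. Positive members numbered 0 without QSZ 10 DAI replicate 3 and 4 without QSZ 12 DAI replicate 1, and negative ones 6 without WR04-6 12 DAI replicate 2. The early light-inducible protein gene LOC_Os01g14410, a chlorophyll-binding stress protein of plastids, was a second case with a called change in WR04-6, with 4.79, 8.15 and 5.98 FPKM in WR04-6 at 12 DAI and 109, 52.3 and 34.7 at 10 DAI, against 50.5, 99.4 and 37.7 in QSZ at 12 DAI and 122 and 134 at 10 DAI. It fell in WR04-6 (−3.36 ± 0.47, adjusted p = 0.032) and the interaction was −2.45 ± 0.66 (adjusted p = 0.026), lost without both libraries of QSZ at 10 DAI taken in turn, QSZ 12 DAI replicate 2, WR04-6 10 DAI replicate 1 (−1.90, the lowest in size) or WR04-6 12 DAI replicates 1 or 3. The call of its change in WR04-6 was lost on the 11 libraries alone and without WR04-6 12 DAI replicate 1 or 2. In 9 genes chosen by locus for cold and germination 1 was positive and 1 negative. The positive one, LOC_Os03g01320, entered by its locus and is described in the table as a putative retrotransposon protein. That description does not match the gene the locus was listed for. The values are given for the locus, and its identity was left uncertain. It had 967, 998 and 1084 FPKM in WR04-6 at 12 DAI and 1144, 1038 and 956 at 10 DAI, against 421, 424 and 209 in QSZ at 12 DAI and 943 and 1568 at 10 DAI. Its interaction was 1.65 ± 0.41 (adjusted p = 0.019), and 1.27 without QSZ 10 DAI replicate 3 (adjusted p = 0.094). The negative one was WRKY71 (LOC_Os02g08440), at −1.30 ± 0.41 (adjusted p = 0.048), with its call kept only without QSZ 10 DAI replicate 2, QSZ 12 DAI replicate 3, QSZ 14 DAI replicate 1 or WR04-6 10 DAI replicates 1 or 2. The 4 DREB1 genes, which switch on cold-induced genes, had interactions of −4.77 to −1.42 with standard errors of 1.32 to 2.61 and were not called.

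Of 215 genes of the response to cold 13 (6.05%) were positive and 13 (6.05%) negative, with 5 and 2 kept throughout. After length adjustment 15 (6.98%) were positive and 5 (2.33%) negative, against 2.68% and 1.8% over all genes. The positive count was 6 without QSZ 10 DAI replicate 3 and 28 without QSZ 12 DAI replicate 1, and the negative one 7 without WR04-6 12 DAI replicate 3. The acyl-CoA-binding domain protein gene LOC_Os08g06550, of a family that carries fatty acyl groups in the cytosol, had 132, 197 and 203 FPKM in WR04-6 at 12 DAI and 132, 140.04 and 105 at 10 DAI, against 13.8, 14.6 and 7.87 in QSZ at 12 DAI and 50.5 and 84.04 at 10 DAI. It fell in QSZ (−2.34 ± 0.30, adjusted p = 0.00035) and the interaction was 2.83 ± 0.40 (adjusted p = 0.0039). The opposite course was that of the probable mixed-linked glucan synthase 9 gene LOC_Os07g36610, of the family that makes a cell wall glucan of grasses, with 1.71, 1.57 and 2.27 FPKM in WR04-6 at 12 DAI and 1.39, 2.29 and 1.63 at 10 DAI, against 15.2, 24.1 and 23.5 in QSZ at 12 DAI and 4.28 and 3.46 at 10 DAI. Its interaction was −2.51 ± 0.47 (adjusted p = 0.0065).

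Oxidative phosphorylation, phagosome and citrate cycle genes were called more often with positive than with negative interactions as deposited. Of 136 genes of oxidative phosphorylation 15 (11%) were positive and 2 (1.47%) negative, with a median of 0.42, and after length adjustment 4 (2.94%, against 2.68% over all genes) were positive, all 4 of them kept throughout, and 1 negative. Positive members numbered 9 without QSZ 10 DAI replicate 3. Of 44 genes of the mitochondrial inner membrane 3 (6.82%) were positive and 2 (4.55%) negative, 1 in each direction after length adjustment, with a median of 0.10 and 0 kept throughout. Without WR04-6 12 DAI replicate 3 that list had 1 positive member, and without QSZ 12 DAI replicate 1 it had 4 negative ones. The V-type proton ATPase, which acidifies the vacuole, was among the oxidative phosphorylation genes. Its subunit E gene LOC_Os01g12260 had 14.3, 17.3 and 18.2 FPKM in WR04-6 at 12 DAI and 13.4, 15.5 and 10.2 at 10 DAI, against 3.47, 2.46 and 2.02 in QSZ at 12 DAI and 6.10 and 12.6 at 10 DAI. Its interaction was 2.02 ± 0.34 (adjusted p = 0.0047), while a subunit G1-like gene (LOC_Os04g51270) had one of 1.45 ± 0.23 (adjusted p = 0.0043). Both were kept throughout, and the second was chosen after its values were seen. Of the 102 genes of the phagosome pathway, which shares the V-ATPase and the tubulins, 14 (13.7%) were positive and 4 negative, with 6 and 0 kept throughout. Of 62 citrate cycle genes 5 (8.06%) were positive and 1 negative. After length adjustment the phagosome had 10 (9.8%) positive and 1 (0.98%) negative, and the citrate cycle 5 (8.06%) and 0. Without QSZ 10 DAI replicate 3, which leaves a single library in that group, the excess of positive calls shrank for the phagosome. For the citrate cycle it was gone. Positive calls over all genes also became fewer without that library. Mitochondrial malate dehydrogenase (LOC_Os05g49880) had 172, 207 and 229 FPKM in WR04-6 at 12 DAI and 166, 182 and 163 at 10 DAI, against 104, 121 and 95.1 in QSZ at 12 DAI and 194 and 213 at 10 DAI. Its interaction was 1.04 ± 0.18 (adjusted p = 0.0051), at the edge of the size limit. It was not called after length adjustment (0.97) or without QSZ 10 DAI replicate 3, QSZ 12 DAI replicates 1 or 3, WR04-6 10 DAI replicate 1 or WR04-6 12 DAI replicate 3 (0.94). The glycine cleavage system H protein 2 gene LOC_Os02g07410, of mitochondrial one-carbon metabolism, had 74.3, 93.8 and 105 FPKM in WR04-6 at 12 DAI and 78.3, 89.2 and 71.9 at 10 DAI, against 30.9, 39.4 and 30.7 in QSZ at 12 DAI and 76.5 and 101 at 10 DAI. Its interaction was 1.44 ± 0.28 (adjusted p = 0.0071), kept throughout.

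Reserve breakdown showed no common course. Of 298 starch and sucrose metabolism genes 12 (4.03%) were positive and 20 (6.71%) negative, with 3 in each direction kept throughout. After length adjustment 12 (4.03%) were positive and 8 (2.68%) negative, against 2.68% and 1.8% over all genes. The split thus turned as it did over all genes. The positive count was 4 without QSZ 10 DAI replicate 3 or WR04-6 10 DAI replicate 3 and 40 without QSZ 12 DAI replicate 1, and the negative one 12 without WR04-6 12 DAI replicate 2. Of 7 alpha-amylase genes, the enzymes that cleave starch, 1 was called. Alpha-amylase isozyme 3A (LOC_Os09g28400) had 30.2, 156 and 13.02 FPKM in WR04-6 at 12 DAI and 19.004, 2.37 and 0.339 at 10 DAI, against 1.38, 14.8 and 20.2 in QSZ at 12 DAI and 23.96 and 253 at 10 DAI, a spread of more than 10-fold within each of the 4 groups. Its interaction of 6.52 ± 1.98 (adjusted p = 0.041) was 4.06 without QSZ 10 DAI replicate 3 (adjusted p = 0.21), and its call was also lost without each of the 3 libraries of QSZ at 12 DAI, WR04-6 10 DAI replicates 2 or 3, WR04-6 12 DAI replicate 2 or WR04-6 14 DAI replicates 2 or 3. The other 6 had interactions of −1.07 to 1.55. Isocitrate lyase and malate synthase of the glyoxylate cycle, and the fermentation genes ADH1, ADH2 and PDC2, had interactions of 0.10 to 0.52 and were not called.

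Ribosome biogenesis, spliceosome and chromatin remodelling genes were called more often with negative than with positive interactions. Ribosome genes were called less often than all genes in both directions (3.43% against 4.03% positive, 0.93% against 4.48% negative), with 0 kept throughout. Of 108 ribosome biogenesis genes 1 was positive and 12 (11.1%) negative, with a median of −0.28, and 4 negative ones were kept throughout, with 20 called without WR04-6 10 DAI replicate 1. After length adjustment 1 was positive and 5 (4.63%) negative. The bms1 gene LOC_Os03g21530, a GTPase of small subunit assembly, had 35.2, 27.5 and 31.3 FPKM in WR04-6 at 12 DAI and 42.1, 44.1 and 55.6 at 10 DAI, against 24.2, 20.7 and 20.7 in QSZ at 12 DAI and 10.4 and 11.9 at 10 DAI. WR04-6 was above QSZ at both times, less so at 12 DAI, and the interaction was −1.71 ± 0.27 (adjusted p = 0.0041) as deposited and −1.01 ± 0.24 after length adjustment. Of 321 ribosome genes, which are short (median 0.51 times the typical length), 11 (3.43%) were positive and 3 negative, with a median of 0.49, and after length adjustment 1 was called in each direction. As deposited, 3 ribosome genes were positive without WR04-6 12 DAI replicate 2 and 19 without WR04-6 10 DAI replicate 3 or WR04-6 12 DAI replicate 1. Of 241 spliceosome genes 6 (2.49%) were positive and 17 (7.05%) negative, and 0 were kept throughout, with 2 positive without QSZ 10 DAI replicate 3 or WR04-6 12 DAI replicate 3, and 1 positive and 3 negative (1.24%) after length adjustment. Of 42 chromatin remodelling genes, a list added after values had been seen, 9 (21.4%) were negative and 0 positive (median length 1.32 times the typical one), and 2 were kept throughout, with 5 called without WR04-6 12 DAI replicate 3. After length adjustment 1 was positive and 3 (7.14%) negative. CHROMATIN REMODELING 5 (LOC_Os07g46590) had 44.98, 38.01 and 35.7 FPKM in WR04-6 at 12 DAI and 44.9, 43.9 and 38.99 at 10 DAI, against 35.995, 28.5 and 28.9 in QSZ at 12 DAI and 14.6 and 14.5 at 10 DAI. Its interaction was −1.34 ± 0.21 (adjusted p = 0.0043) as deposited, and −0.71 after length adjustment, below the size limit.

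The response to chitin had negative calls only, while plant-pathogen interaction, defence and heat genes were called in both directions. Of 69 genes of the response to chitin 0 were positive and 7 (10.1%) negative, with a median of −0.80 (−0.69 with groups at 0 set to the floor), and 2 were kept throughout, with 4 called without QSZ 10 DAI replicate 3 or WR04-6 10 DAI replicate 3 and 12 without QSZ 12 DAI replicate 3. After length adjustment 5 (7.25%) were negative. ATL6 (LOC_Os02g36300), a ubiquitin ligase known in Arabidopsis from elicitor responses, had 0.801, 0.699 and 0.743 FPKM in WR04-6 at 12 DAI and 0.386, 0.404 and 1.31 at 10 DAI, against 5.98, 5.34 and 5.17 in QSZ at 12 DAI and 1.02 and 0.577 at 10 DAI. Its interaction was −2.83 ± 0.72 (adjusted p = 0.02), and −2.48 without QSZ 10 DAI replicate 3 (adjusted p = 0.077). Of 417 plant-pathogen interaction genes 9 (2.16%) were positive and 28 (6.71%) negative, with 0 and 4 (0.959%) kept throughout. After length adjustment 5 (1.2%) were positive and 6 (1.44%) negative, both below the shares over all genes (2.68% and 1.8%). Of 460 defence response genes 12 (2.61%) were positive and 26 (5.65%) negative, with 7 (1.52%) and 5 (1.09%) kept throughout. After length adjustment 13 (2.83%) were called in each direction, and the positive share was near that over all genes. Without WR04-6 12 DAI replicate 3 the negative counts were 18 for plant-pathogen interaction and 16 for defence, and without QSZ 12 DAI replicate 1 the positive ones were 18 and 33. In the response to heat, 7 of 126 (5.56%) were positive and 6 (4.76%) negative, and 6 (4.76%) and 0 after length adjustment. As deposited, 2 were positive without WR04-6 10 DAI replicate 3 or WR04-6 12 DAI replicate 2. The 18.9 kDa heat shock protein gene LOC_Os02g03570, a small chaperone, had 9.94, 14.2 and 12.8 FPKM in WR04-6 at 12 DAI and 13.3, 9.28 and 4.98 at 10 DAI, against 0.999, 0.462 and 0.264 in QSZ at 12 DAI and 2.36 and 4.88 at 10 DAI. Its interaction was 2.94 ± 0.62 (adjusted p = 0.0098), kept throughout.

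The widest interactions were ranked among 1152 called genes with a mean of at least 10 FPKM in 1 of the 4 groups and a value above 0 in both accessions. At the positive end 4 of the 10 genes, LOC_Os01g24700, LOC_Os09g33555, LOC_Os07g10139 and LOC_Os03g08284, were at 0 in all 3 QSZ libraries of 12 DAI, so their fitted values depend on the prior count and give no fold. The gene LOC_Os09g33555, with no description, had 17.2, 17.1 and 29.8 FPKM in WR04-6 at 12 DAI and 31.9, 31.7 and 34.98 at 10 DAI, against 0 in QSZ at 12 DAI and 1.11 and 0.406 at 10 DAI. WR04-6 lay far above QSZ at both times. This gene was kept throughout, but its call was lost with limma on log2(FPKM + 1) and with quantile scaling. Its lowest value over all alternatives was 0.14. Other called genes at 0 in QSZ at 12 DAI were BAG family molecular chaperone regulator 2 (LOC_Os01g67950) and a barwin gene (LOC_Os11g37940), of a class of wound-induced chitin-binding proteins. BAG2 had 2.32, 2.20 and 1.98 FPKM in WR04-6 at 12 DAI and 3.83, 3.93 and 8.50 at 10 DAI, against 9.39 and 2.99 in QSZ at 10 DAI. The barwin gene LOC_Os11g37940 had 5.13, 6.79 and 6.80 FPKM in WR04-6 at 12 DAI and 5.89, 2.52 and 2.07 at 10 DAI, against 0.122 and 0.184 in QSZ at 10 DAI. Of the remaining 6 positive genes, LOC_Os08g08090 and LOC_Os01g74300 were kept throughout. The gene LOC_Os08g08090, an uncharacterized protein, had 26.8, 39.02 and 2.59 FPKM in WR04-6 at 12 DAI and 1.94, 0.391 and 1.13 at 10 DAI, against 10.98, 3.75 and 0.461 in QSZ at 12 DAI and 22.9 and 43.2 at 10 DAI. WR04-6 differed from QSZ at 10 DAI (−5.05, adjusted p = 0.0056) while the difference at 12 DAI did not pass the test (1.82, adjusted p = 0.17). The gene LOC_Os01g74300, a hypothetical protein, had 10.5, 33.7 and 24.3 FPKM in WR04-6 at 12 DAI and 7.97, 7.50 and 2.26 at 10 DAI, against 0.489, 0.599 and 0.0803 in QSZ at 12 DAI and 1.78 and 7.75 at 10 DAI.

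At the negative end, LOC_Os04g28820, LOC_Os09g35940 and LOC_Os03g58850 of the 10 genes were kept throughout. Cytochrome P450 78A9 (LOC_Os09g35940, chromosome 9, 20691306 to 20693116), of a family known in Arabidopsis for promoting organ growth, had 2.30, 1.65 and 4.53 FPKM in WR04-6 at 12 DAI and 2.23, 2.34 and 2.24 at 10 DAI, against 17.01, 26.4 and 34.2 in QSZ at 12 DAI and 1.55 and 0.826 at 10 DAI. It rose in QSZ (4.56 ± 0.68, adjusted p = 0.00064), with no change called in WR04-6 (0.31, adjusted p = 0.92), and the interaction was −4.25 ± 0.80 (adjusted p = 0.0065). The gene LOC_Os03g58850, with no description, had 3.52, 2.14 and 4.37 FPKM in WR04-6 at 12 DAI and 2.75, 2.48 and 2.32 at 10 DAI, against 37.5, 75.7 and 90.4 in QSZ at 12 DAI and 3.59 and 2.49 at 10 DAI. Its interaction was −4.21 ± 0.69 (adjusted p = 0.0044). The gene LOC_Os04g28820 had 0.783, 0.418 and 0.548 FPKM in WR04-6 at 12 DAI and 2.53, 2.25 and 1.13 at 10 DAI, against 13.4, 18.4 and 12.1 in QSZ at 12 DAI and 0.493 and 1.14 at 10 DAI. Its interaction was −6.06 ± 1.04 (adjusted p = 0.005), on a transcript 3.19 times the typical length. Also at this end stood histone-lysine N-methyltransferase ATXR3 (LOC_Os08g08205), a chromatin remodeling protein-like gene (LOC_Os06g14406) and a transformation/transcription domain-associated protein gene (LOC_Os07g45074). ATXR3 had 18.6, 16.2 and 14.8 FPKM in WR04-6 at 12 DAI and 13.001, 16.6 and 15.9 at 10 DAI, against 15.8, 6.75 and 16.1 in QSZ at 12 DAI and 1.25 and 0.683 at 10 DAI. In all 3 the QSZ libraries of 10 DAI lay lowest and the other 3 groups were alike, apart from QSZ 12 DAI replicate 2, which lay between them, and all 3 calls were lost without QSZ 10 DAI replicate 3, at −3.37, −3.40 and −3.06 for ATXR3, LOC_Os06g14406 and LOC_Os07g45074. The call of LOC_Os07g45074 was also lost without WR04-6 12 DAI replicate 2. That of LOC_Os06g14406 was lost without 8 of the 17 libraries, the others being QSZ 12 DAI replicate 3 and each WR04-6 library of 10 and 12 DAI, and after length adjustment (adjusted p = 0.069).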

How the data were processed

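RNA-seq of germinating rice seeds was analysed in 17 libraries of 2 accessions at 10, 12 and 14 DAI, of which 11 form the interaction. The deposited table of 23223 genes holds, per library, FPKM values that the authors computed (fragments scaled by transcript length and library size). It also holds estimated counts that the authors deposited as whole numbers, which behave as coverage-derived values of about 4 per sequenced fragment and are 0 exactly where FPKM is 0. The submitters' processing notes name cutadapt (1.9), HISAT2 (2.0.4) and StringTie (1.3.4d). Gene loci are those of the MSU rice annotation, coordinates are the table's own, and annotations to processes and pathways were taken from it. No column of another series or of a comparison by the authors was used.

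Genes reaching 0.1 FPKM in 2 or more libraries entered edgeR (4.0.16, R 4.3.3) quasi-likelihood tests on the estimated counts with TMM scaling and all 17 libraries in 6 groups, which share 1 estimate of the spread. Calls needed a Benjamini-Hochberg adjusted p below 0.05 over all genes and a log2 value of at least 1 in size. The p-values measure the spread between these libraries. Tested on simulated counts of the 21949 genes, the interaction recovered 14% of 100 genes changed 2-fold and 65% of 100 changed 4-fold, with 1 false call. The 2-fold changes sat at the size limit of a call. The simulated counts held no change with time that followed transcript length, so the false calls do not cover that trend. Estimated counts per library were 33280479 to 72494532 at 10 and 12 DAI, and a group at 0 was set to a floor of 3 fragments (12 estimated counts over the group) where stated.

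The comparison, its members and the gene lists were chosen with earlier results of these data known. Genes were named by rule, as the 10 highest and 10 lowest interactions among called genes with a mean of at least 10 FPKM in 1 of the 4 groups and a value above 0 in both accessions, up to 4 called members of each list with a mean of at least 5 FPKM and the largest interaction, and members of lists chosen by locus. Genes of the tubulin, mitotic cyclin, histone, SAUR, LEA, oleosin, expansin and chromatin lists, and LOC_Os02g07060, LOC_Os04g51270, LOC_Os04g40950, LOC_Os02g30910, LOC_Os03g13950 and LOC_Os07g46590, were chosen after values were seen. Alternatives were median-ratio size factors, DESeq2 (1.42.0), limma (3.58.1) on log2(FPKM + 0.1) and with other pseudocounts, quantile scaling, other filters and thresholds, library totals, counts divided by 4, the 11 libraries alone, a replicate block and each library left out in turn. After seeing the data, 3 were added, a length offset alone and without QSZ 12 DAI replicate 1 or 3. One list matched no gene, and 1 green shoot marker did not pass the filter.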

Additional observations from a re-analysis of the deposited data

Results flagged for a closer look

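The interaction is itself a test of a difference between 2 accessions under the same change with time, so its 1867 calls and the 20 genes ranked by it are collected here, each picked out because the test found that the change between 10 and 12 DAI differed between WR04-6 and QSZ. Among the negative genes the log2 interaction was −6.22 for NCED5 (LOC_Os12g42280), −6.06 for LOC_Os04g28820, −5.71 for LOC_Os01g62750, −5.15 for the em-like gene LOC_Os01g06630 and −4.25 for cytochrome P450 78A9 (LOC_Os09g35940). It was −4.23 for LOC_Os10g13850, −4.21 for LOC_Os03g58850, −4.05 for the chromatin remodeling protein-like gene LOC_Os06g14406, −3.74 for ATXR3 (LOC_Os08g08205) and −3.70 for LOC_Os07g45074. The value of LOC_Os01g62750 rests on 2 QSZ libraries of 10 DAI at 0 FPKM and is no fold, with 14.95, 13.6 and 12.1 FPKM in WR04-6 at 12 DAI and 13.7, 12.5 and 9.28 at 10 DAI, against 0.0461, 0.0252 and 0.0944 in QSZ at 12 DAI. The gene LOC_Os10g13850 had 9.50, 6.18 and 7.08 FPKM in WR04-6 at 12 DAI and 44.2, 14.1 and 11.9 at 10 DAI, against 73.6, 123 and 142 in QSZ at 12 DAI and 18.4 and 22.2 at 10 DAI, and its call was lost without either library of QSZ at 10 DAI (−4.18 without replicate 2, adjusted p = 0.062, and −4.36 without replicate 3, adjusted p = 0.056).

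Among the positive genes the fitted value was 8.48 for LOC_Os01g24700, 7.79 for LOC_Os09g33555, 7.67 for LOC_Os07g10139 and 5.87 for LOC_Os03g08284, all at 0 FPKM in QSZ at 12 DAI. It was 6.88 for LOC_Os08g08090, 6.52 for alpha-amylase 3A (LOC_Os09g28400), 6.49 for the chlorophyll a-b binding protein gene LOC_Os06g21590, 6.38 for the SAUR36-like gene LOC_Os09g37480, 5.37 for LOC_Os01g74300 and 5.28 for LOC_Os01g73940. The gene LOC_Os01g73940 had 20.4, 101 and 86.1 FPKM in WR04-6 at 12 DAI and 24.2, 19.3 and 26.9 at 10 DAI, against 0.614, 0.176 and 0.163 in QSZ at 12 DAI and 0.708 and 9.38 at 10 DAI, and without QSZ 10 DAI replicate 3 its interaction was 2.53 (adjusted p = 0.14). In LOC_Os06g21590, QSZ at 10 DAI had 3.26 and 22.6 FPKM in replicates 2 and 3, and the interaction was 4.59 without replicate 3. Of these 20 genes, 6 were kept throughout. Among them, LOC_Os09g33555 lost its call with limma on log2(FPKM + 1) and with quantile scaling.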

How the results depend on the processing

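Every count of calls depended on the settings. The 1867 interaction calls became 595 at an adjusted p below 0.01, 3241 with no size limit, 984 length-adjusted and 691 length-adjusted without QSZ 12 DAI replicate 3, and 1075 to 2936 with 1 library left out. The 884 positive calls became 1382 with DESeq2, 221 at p below 0.01, 1338 with no size limit, 588 length-adjusted, 415 and 1822 length-adjusted without QSZ 12 DAI replicate 3 or 1, and 439 to 1884 with 1 library left out. The 983 negative calls became 482 with limma on log2(FPKM + 1), 567 on library totals, 374 at p below 0.01, 1903 with no size limit, 396 length-adjusted, 276 and 542 length-adjusted without QSZ 12 DAI replicate 3 or 1, and 633 to 1083 with 1 library left out. The 6 calls in WR04-6 became 112 with DESeq2, 15 with limma on log2(FPKM + 1), 16 with quantile scaling, 0 on the 11 libraries alone, 1 at p below 0.01 and 0 to 7 with 1 library left out. The 2914 calls in QSZ became 1694 at p below 0.01, 6228 with no size limit, 1737 length-adjusted without QSZ 12 DAI replicate 3, and 2273 to 3824 with 1 library left out. The share of positive calls was 47.3%, and 65.9% with limma on log2(FPKM + 0.1), 68.9% on library totals, 59.8% length-adjusted and 28.8% without QSZ 10 DAI replicate 3. Replicate numbers did not pair the samples (correlations of same-numbered deviations of −0.26 to 0.17), and with the replicate block 1361 interaction genes were called (595 positive, 766 negative), 0 in WR04-6 and 2448 in QSZ. The genes with a QSZ group at 0 that changed sign were LOC_Os01g62750, to 0.11, and LOC_Os03g08284, to −0.10, with limma on log2(FPKM + 1). With 1 library left out, LOC_Os03g08284 ranged from −0.18 without QSZ 10 DAI replicate 3, where both QSZ groups were then at 0, to 6.74. Over the named genes and all alternatives, 2366 values kept direction and side of the threshold, 342 lost the call, 9 gained it and 3 changed sign. Simulated 2-fold interactions, whose true value equals the size limit of a call, were mostly not called, so their recovery does not measure the design alone.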

Other observations

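Several genes outside the rule for naming were also kept throughout and are given as values, chosen after they were seen. SWEET15 (LOC_Os02g30910), of a family of sugar transporters, had 72.2, 124 and 89.3 FPKM in WR04-6 at 12 DAI and 61.1, 70.1 and 70.96 at 10 DAI, against 16.4, 8.19 and 9.14 in QSZ at 12 DAI and 61.1 and 48.4 at 10 DAI. Its interaction was 2.65 ± 0.44 (adjusted p = 0.0045). The actin-depolymerizing factor 5 gene LOC_Os03g13950, which remodels the actin cytoskeleton, had 20.3, 25.9 and 26.2 FPKM in WR04-6 at 12 DAI and 27.99, 21.02 and 22.2 at 10 DAI, against 7.49, 4.18 and 1.44 in QSZ at 12 DAI and 38.6 and 40.6 at 10 DAI. Its interaction was 3.09 ± 0.60 (adjusted p = 0.007). Cytosolic glyceraldehyde-3-phosphate dehydrogenase 2 (LOC_Os04g40950), a glycolytic enzyme, had 456, 529 and 519.5 FPKM in WR04-6 at 12 DAI and 542, 450.4 and 399.9 at 10 DAI, against 221, 259.7 and 156 in QSZ at 12 DAI and 456 and 603 at 10 DAI. Its interaction was 1.3 ± 0.27 (adjusted p = 0.0088). In all 3 the QSZ libraries of 12 DAI lay below every other library of 10 and 12 DAI.

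At 14 DAI, outside the interaction, the genes described above took different courses. The gibberellin 20 oxidase 1-like gene (LOC_Os03g63970) had 70.05, 103 and 80.3 FPKM in WR04-6 and 48.7, 48.1 and 38.3 in QSZ at 14 DAI, and PYL4 (LOC_Os03g18600) had 14.5, 16.1 and 18.1 in WR04-6 and 10.2, 13.4 and 17.003 in QSZ. PP2C 30 (LOC_Os03g16170) had 2.77, 1.27 and 1.06 FPKM in WR04-6 and 24.3, 36.9 and 15.6 in QSZ, and NCED5 (LOC_Os12g42280) had 0.672, 0.189 and 0.0944 in WR04-6 and 12.03, 6.24 and 0.49 in QSZ. For PP2C 30 every QSZ library of 14 DAI lay above every WR04-6 library and for the gibberellin 20 oxidase 1-like gene every one lay below, while the PYL4 and NCED5 values of the 2 accessions overlapped.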
